A study of Mus musculus with 15 samples.

Results

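A set of 10 transcription factors that specify or maintain the B lineage were followed in sorted blood progenitors of transplanted mice: Pax5, Ebf1, Tcf3, Foxo1, Ikzf1, Ikzf3, Pou2af1, Bcl11a, Spib and Lef1. They were chosen by gene symbol, with earlier results of these data known, so counts of calls among them describe these arrays and are not an independent test. They make up 10 of the 17097 genes tested, and the array carries 19 probe sets for them, from 1 to 4 a gene. The cells measured were LSK cells, which lack lineage markers, carry Sca-1 and Kit, and hold the stem cells and early progenitors of bone marrow. Bone marrow cells of 5-FU (5-fluorouracil) treated female C57Bl/6 mice received the retroviral vector MSCV-HOXB4-ires-YFP, or with MSCV-ires-GFP as the control, and were given to lethally irradiated C57Bl/6 hosts, from which LSK cells with the fluorescent protein were later sorted and used without culture. By the sample titles, HOXB4 cells were collected 6, 12 and 20 weeks after the transplant and GFP cells after 12 and 20 weeks, giving 5 groups of 3 arrays. GFP cells at 6 weeks were not analysed here. All groups thus share the drug-treated graft, the irradiated host and a retroviral vector, and the fluorescent protein differs between vectors together with HOXB4. The labels give neither the age of the mice, nor whether cells of several mice were pooled, nor whether the 3 arrays of a group come from separate mice, so a p-value reflects the variation among these arrays alone, which may be technical.

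Commitment to the B lineage runs through a layered set of regulators. The E protein encoded by Tcf3 and the zinc finger factors Ikzf1 (Ikaros) and Bcl11a are already made in multipotent progenitors and are needed to open the lymphoid programme, and Foxo1 acts with them in the earliest B-lineage cells. Ebf1 then specifies the lineage and Pax5 fixes it, each sustaining the other, while Lef1 is made in pro-B cells and Pou2af1 (OBF-1) is a coactivator of octamer-binding proteins. Spib, a relative of PU.1, and Ikzf3 (Aiolos) are made at later B-cell stages, and Spib and Bcl11a also serve in plasmacytoid dendritic cells. Id proteins bind E proteins and keep them off DNA.

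Promoter sequence was taken from RefSeq (GRCm38.p6) for Pax5, Ebf1, Pou2af1 and Lef1, the 4 factors whose signals moved together over the arrays. Each line gives the 250 bases before the annotated start of the gene, 5′ to 3′ on the strand of the gene, and capitals mark CANNTG, the E-box that E proteins bind. The windows are chr4:44710695-44710944 on the minus strand for Pax5, chr11:44617850-44618099 on the plus strand for Ebf1, chr9:51213440-51213689 on the plus strand for Pou2af1 and chr3:131110047-131110296 on the plus strand for Lef1.
Pax5: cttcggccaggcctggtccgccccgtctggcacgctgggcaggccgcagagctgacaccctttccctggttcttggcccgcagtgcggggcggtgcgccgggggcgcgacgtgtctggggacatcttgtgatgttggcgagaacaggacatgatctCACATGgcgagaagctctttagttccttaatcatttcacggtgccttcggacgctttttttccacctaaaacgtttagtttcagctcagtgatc
Ebf1: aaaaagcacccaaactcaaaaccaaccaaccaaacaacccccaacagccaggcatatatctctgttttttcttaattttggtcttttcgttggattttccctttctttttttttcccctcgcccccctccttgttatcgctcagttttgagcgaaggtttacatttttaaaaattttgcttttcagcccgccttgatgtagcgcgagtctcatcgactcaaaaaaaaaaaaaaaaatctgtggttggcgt
Pou2af1: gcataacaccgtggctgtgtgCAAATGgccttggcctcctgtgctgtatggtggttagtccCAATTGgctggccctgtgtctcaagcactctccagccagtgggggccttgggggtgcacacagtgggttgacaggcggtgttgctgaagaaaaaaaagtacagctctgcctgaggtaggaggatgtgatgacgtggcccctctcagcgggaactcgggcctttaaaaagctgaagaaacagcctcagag
Lef1: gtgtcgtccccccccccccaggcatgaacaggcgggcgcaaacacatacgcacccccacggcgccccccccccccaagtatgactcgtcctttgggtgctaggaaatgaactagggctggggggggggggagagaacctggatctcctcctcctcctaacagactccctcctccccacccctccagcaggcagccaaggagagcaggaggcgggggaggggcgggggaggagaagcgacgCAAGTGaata
These windows held 1 E-box in Pax5, 2 in Pou2af1, 1 in Lef1 and none in Ebf1, and 66.2% of the 32851 promoter windows of this length in the table held at least 1. The narrower E-box CAGGTG (17.2% of all windows), the EBF palindrome of TCCC and GGGA with any 2 bases between (0.779%), the octamer ATTTGCAT (1.6%), GTAAACA of FOXO proteins (3.17%), TGGGAA of Ikaros (21.6%), CTTTGAA of LEF and TCF proteins (4.46%) and TGATTNAT of HOX with PBX proteins (2.82%) were searched on both strands as well. None of these 7 was found in the 4 windows printed, which says only that these letters are not there. Of the 14 windows that the table holds for 9 of the 10 members (not Ikzf3), 1 of Foxo1 held the EBF palindrome, and 1 of Bcl11a and another of Ebf1 held 1 TGGGAA each. CAGGTG is a special case of CANNTG. The window at another start of Ebf1, not printed, held 1 E-box (CAAGTG), and those at other starts of Lef1 held 1 or 2. The Lef1 window at chr3:131110073-131110322 overlaps the printed Lef1 window, and its E-box is the same CAAGTG.

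The values are the authors' deposited log2 RMA signals, and differences are on the log2 scale, given ± the standard error from a limma model of all 15 arrays, a gene being called at a Benjamini-Hochberg adjusted p under 0.05 over all genes. Kit lay between 7.89 and 8.79 and Cd34 between 8.95 and 10.24 over the 15 arrays, while Flt3 ran from 7.40 to 9.49, Meis1 from 6.29 to 8.71, Procr from 4.87 to 6.65 and Slamf1 from 4.84 to 8.32. Replicate 1 of HOXB4 at 6 weeks stood apart in the Gapdh control probes, whose 3′ end exceeded the 5′ end by 3.76 log2 units, against 0.81 to 2.02 on the other 14 arrays. Replicate arrays correlated least in HOXB4 cells at 6 weeks, with 0.969 to 0.980 across genes, against 0.980 to 0.995 within the other groups. In these sorted populations fewer cells of a type and less RNA per cell cannot be told apart.

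Pax5 and Ebf1, the factors that commit progenitors to the B lineage, were high in HOXB4 cells and low in GFP cells at 12 weeks. The log2 signal of Pax5 was 5.16, 5.30 and 6.09 on the GFP arrays and 9.81, 9.07 and 9.71 on the HOXB4 arrays at 12 weeks. The lowest HOXB4 array thus stood well above the highest GFP array. The difference was 4.01 ± 0.79 (16.1-fold; limma adjusted p = 0.012). Ebf1 had signals of 3.77, 4.76 and 4.67 on the GFP arrays and 8.37, 7.77 and 8.15 on the HOXB4 arrays, again without overlap, and differed by 3.70 ± 0.72 (limma adjusted p = 0.0115). The other probe sets of Ebf1 gave 3.36 and 4.45 (adjusted p = 0.017 and 0.0163, here adjusted over every named probe set).

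Lef1, a partner of beta-catenin made in pro-B cells, and Pou2af1 followed the same order. Lef1 had signals of 3.96, 4.34 and 3.86 on the GFP arrays and 7.29, 6.20 and 7.14 on the HOXB4 arrays at 12 weeks. Its groups did not overlap, and it differed by 2.82 ± 0.68 (7.08-fold; limma adjusted p = 0.0321). This call was lost in each of the 6 fits without 1 of these arrays (adjusted p from 0.0637 to 0.122) and with a trended, robust moderation (adjusted p = 0.0608). Pou2af1 had signals of 5.82, 4.69 and 5.39 on the GFP and 9.13, 8.57 and 9.10 on the HOXB4 arrays. Its groups did not overlap either, yet it did not pass (3.63 ± 1.05; limma adjusted p = 0.068) in the model that shares its spread with HOXB4 cells at 6 weeks, where the SD of Pou2af1 was 3.02. Without the 6-week group, an alternative chosen after seeing the data, Pou2af1 passed at 12 weeks (adjusted p = 0.00283).

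**Figure D1:**
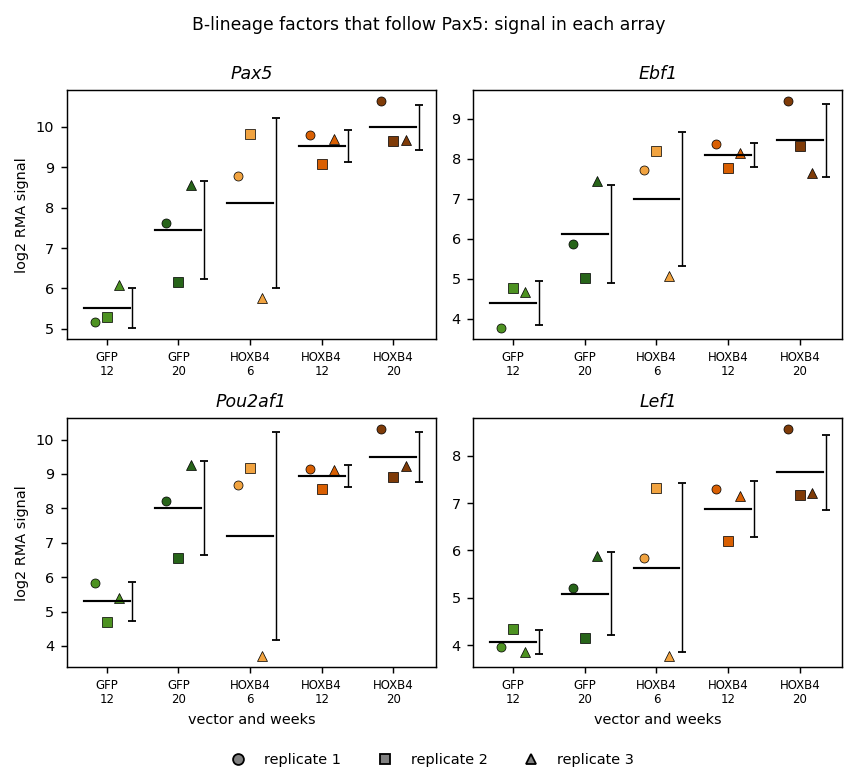
Log2 RMA signal of Pax5, Ebf1, Pou2af1 and Lef1 (1 panel a gene, vertical axis) on each of 15 arrays by vector and weeks after transplantation (horizontal axis); points are arrays with a symbol for each replicate number, horizontal bars are group means and vertical bars their SD (n = 3). All 3 GFP arrays at 12 weeks lie below the HOXB4 arrays at 12 and 20 weeks in each panel, and replicate 3 of HOXB4 at 6 weeks, at 5.75 for Pax5, lies near the GFP arrays at 12 weeks.

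None of the factors of the multipotent stage was called between the vectors at 12 weeks. Tcf3 had a mean of 8.86 ± 0.10 on the GFP and 8.95 ± 0.20 on the HOXB4 arrays (SD, n = 3), a difference of 0.09 with a 95% interval of the model from -0.35 to 0.53. For Foxo1 the difference was 0.02, with an interval of -0.29 to 0.34, and for Ikzf1 it was 0.21, with an interval of -0.07 to 0.49. Bcl11a had signals of 9.59, 9.53 and 9.51 on the GFP and 10.19, 9.84 and 10.04 on the HOXB4 arrays. Its groups did not overlap, and the difference of 0.48 ± 0.14 missed the threshold (limma adjusted p = 0.0716), while 1 of its 3 other probe sets passed (0.61; adjusted p = 0.048 on that scale).

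Of the late-stage factors, Spib had signals of 5.44, 5.37 and 5.51 on the GFP and 6.65, 6.25 and 6.58 on the HOXB4 arrays at 12 weeks. The groups did not overlap, and the difference of 1.05 ± 0.56 did not pass (limma adjusted p = 0.322), but it passed when these groups were fitted alone (adjusted p = 0.000492), without the GFP arrays at 20 weeks, where its SD was 1.56. Ikzf3 was at 4.04 in both groups, with a 95% interval of the difference from -0.88 to 0.88. Such low signals may be background, since no detection calls were used.

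At 12 weeks 3 of the 10 factors were therefore called higher in HOXB4 cells, Pax5, Ebf1 and Lef1, and the other 7 were not called. Over all genes 1.82% were called higher and 2.2% lower. The median difference of the 10 factors was 0.76, against -0.02 over all genes. The HOXB4 arrays lay above all GFP arrays for 7 factors, an order that 14.4% of all genes had. No factor passed when replicate 1 of GFP or replicate 1 of HOXB4 at 12 weeks was left out, although in those fits Pax5 still differed by 3.84 and 3.87 (adjusted p = 0.063 and 0.0549). Over all its alternatives the difference of Pax5 at 12 weeks stayed between 3.84 and 4.30. Beside these differences, the mean level of 9 neutrophil markers was 7.77 to 8.27 on the HOXB4 and 6.37 to 7.11 on the GFP arrays at 12 weeks, with 1 of the 9 called higher and a median difference of 1.36. That of 10 monocyte markers was 5.88 to 6.24 on the HOXB4 and 6.48 to 6.66 on the GFP arrays, with 1 of the 10 called lower. Their part in the differences of the factors was not tested.

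At 20 weeks Bcl11a, Tcf3, Ikzf1 and Lef1 were higher in HOXB4 than in GFP cells and Ikzf3 was lower, while Pax5 and Ebf1 missed the threshold. The Pax5 signal was 7.62, 6.16 and 8.57 on the GFP arrays and 10.63, 9.66 and 9.68 on the HOXB4 arrays. The groups still did not overlap, yet the difference of 2.54 ± 0.79 (5.82-fold) missed the threshold (limma adjusted p = 0.059). Ebf1 had 5.87, 5.03 and 7.45 on the GFP arrays, 9.44, 8.31 and 7.64 on the HOXB4 arrays and a difference of 2.35 ± 0.72 (limma adjusted p = 0.0563). Both passed without replicate 3 of the 6-week HOXB4 group, an alternative chosen after seeing the data (Pax5 limma adjusted p = 0.00471, Ebf1 adjusted p = 0.011). That array is no part of this contrast but adds to the shared spread. Both also passed without replicate 3 of GFP at 20 weeks (3.10 and 3.01). Each was called in 5 of its 17 alternatives, with limma adjusted p up to 0.257 for Pax5 and 0.242 for Ebf1. Neither passed in a fit of only the 20-week groups, which holds no 6-week array.

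Lef1 had signals of 5.21, 4.16 and 5.89 on the GFP and 8.56, 7.17 and 7.22 on the HOXB4 arrays at 20 weeks, and was higher in HOXB4 cells by 2.56 ± 0.68 (5.92-fold; limma adjusted p = 0.0286). This Lef1 call was lost without replicate 1 or 2 of GFP or replicate 1 of HOXB4 at 20 weeks (limma adjusted p = 0.0747, 0.145 and 0.0951). It was also lost with a trended, robust moderation (adjusted p = 0.057). Pou2af1 had 8.22, 6.57 and 9.27 on the GFP and 10.30, 8.92 and 9.24 on the HOXB4 arrays. These overlapped, because replicate 3 of GFP reached the level of the HOXB4 arrays, and the difference was 1.47 ± 1.05 (limma adjusted p = 0.46). Spib overlapped as well, with 6.54, 5.97 and 8.90 in GFP and 8.11, 6.93 and 6.99 in HOXB4 cells (0.21 ± 0.56; limma adjusted p = 0.876).

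Bcl11a, a zinc finger repressor needed for early lymphoid progenitors, had the smallest p of the 10 factors at 20 weeks. Its signal was 8.74, 8.60 and 9.20 on the GFP arrays and 10.03, 10.12 and 10.02 on the HOXB4 arrays. The groups did not overlap, and Bcl11a was higher in HOXB4 cells by 1.21 ± 0.14 (2.31-fold; limma adjusted p = 8.59e-05). All 3 other probe sets of Bcl11a were called in the same direction, with 0.97, 1.21 and 1.13. Under each of the 17 alternatives run for Bcl11a at 20 weeks it stayed called, between 1.08 and 1.39.

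Tcf3 and Ikzf1 were higher in HOXB4 cells at 20 weeks by smaller amounts. Tcf3 had signals of 8.51, 8.72 and 9.04 on the GFP and 9.57, 9.12 and 9.85 on the HOXB4 arrays, which did not overlap, and differed by 0.76 ± 0.21 (1.69-fold; limma adjusted p = 0.0327). Its other probe sets gave 0.70 (adjusted p = 0.0124 on the probe-set scale) and 0.47 (adjusted p = 0.0775). Ikzf1 averaged 10.57 ± 0.20 on the GFP and 11.03 ± 0.16 on the HOXB4 arrays (SD, n = 3) and differed by 0.46 ± 0.13 (limma adjusted p = 0.0403). The other probe set of Ikzf1 did not show this, with 0.09 (adjusted p = 0.682). Of 7 fits that left out 1 replicate, 2 kept the Ikzf1 call and 3 kept that of Tcf3. Foxo1 differed by 0.16, with a 95% interval from -0.15 to 0.47.

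Ikzf3 was the 1 factor called lower in HOXB4 cells. Its signal at 20 weeks was 5.80, 4.38 and 6.94 on the GFP arrays and 4.03, 4.18 and 4.12 on the HOXB4 arrays. The HOXB4 arrays stayed at the level of 12 weeks, and replicate 2 of GFP stood only just above them. The difference was -1.60 ± 0.41 (3.02-fold; limma adjusted p = 0.0243), and it was -0.98 without replicate 3 of GFP (adjusted p = 0.0511). The other probe set of Ikzf3 differed by 0.09 (adjusted p = 0.834).

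**Figure D2:**
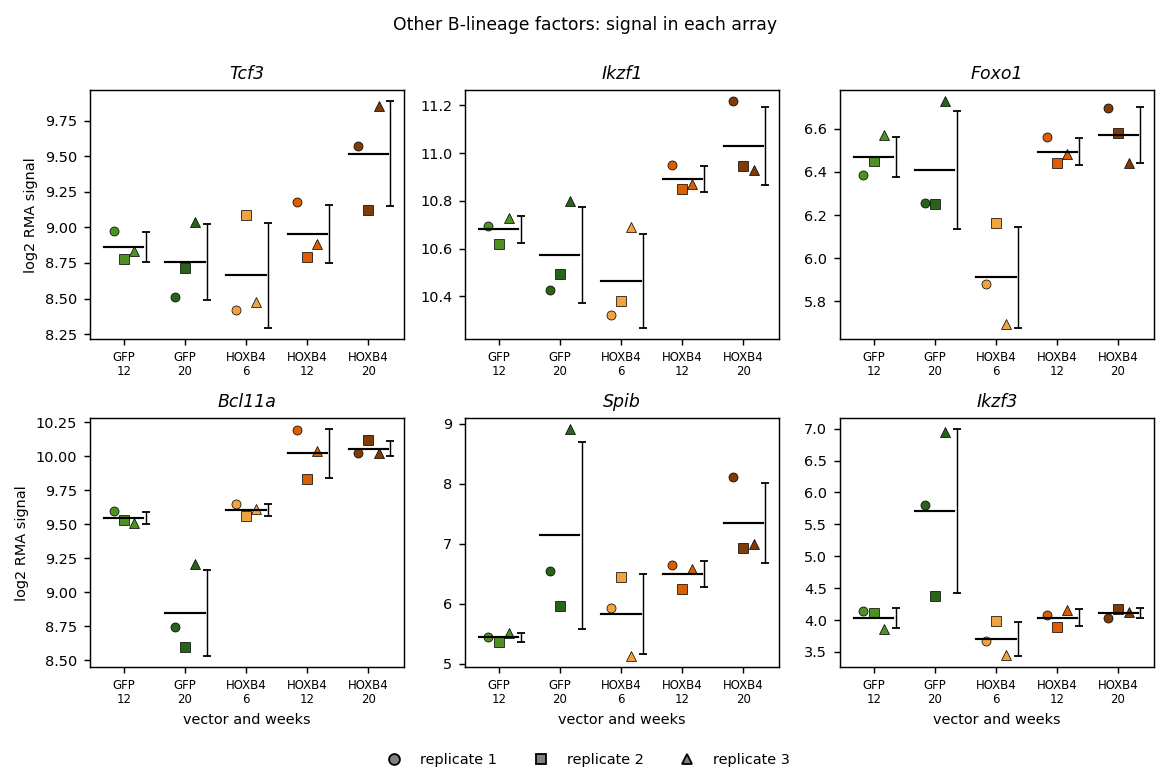
Log2 RMA signal of Tcf3, Ikzf1, Foxo1, Bcl11a, Spib and Ikzf3 (1 panel a gene, each with its own vertical range) on each of 15 arrays by vector and weeks; points are arrays, horizontal bars group means and vertical bars SD (n = 3). Bcl11a is lowest on the GFP arrays at 20 weeks (8.60 to 9.20), while Spib and Ikzf3 are highest on replicate 3 of the same group (8.90 and 6.94).

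In all, 4 of the 10 factors were called higher at 20 weeks (Bcl11a, Lef1, Tcf3 and Ikzf1), 1 lower (Ikzf3) and 5 not called. Over all genes 3.77% were called higher and 5.18% lower. The median difference of the 10 was 0.98, against 0.02 over all genes. HOXB4 arrays lay above all GFP arrays for 6 factors and below for 1, compared with 12.9% and 12.5% of all genes. The count of 5 calls fell to 1 without replicate 1 of GFP and to 1 without replicate 1 of HOXB4, to 2 without replicate 2 of GFP and without replicate 3 of HOXB4, and to 3 without replicate 2 of HOXB4, and each of these fits kept Bcl11a. It was 3 with each array centred on its median, 3 with the mean of the probe sets and 2 in a fit of only these groups.

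For none of the 10 factors did the HOXB4 effect at 20 weeks differ from that at 12 weeks by the limma test (3 of 10 at an unadjusted p under 0.05; 0.509% of all genes called). Bcl11a came nearest, with a difference between the effects of 0.73 ± 0.20 (adjusted p = 0.146), followed by Ikzf3 with -1.60 ± 0.58 (adjusted p = 0.321). For Pax5 the difference between the effects was -1.47, with a 95% interval from -3.85 to 0.90. Without replicate 3 of GFP at 20 weeks Bcl11a passed (0.91; adjusted p = 0.0119), and without replicate 2 of GFP at 20 weeks Ikzf3 passed (-2.26; adjusted p = 0.00859).

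**Figure D3:**
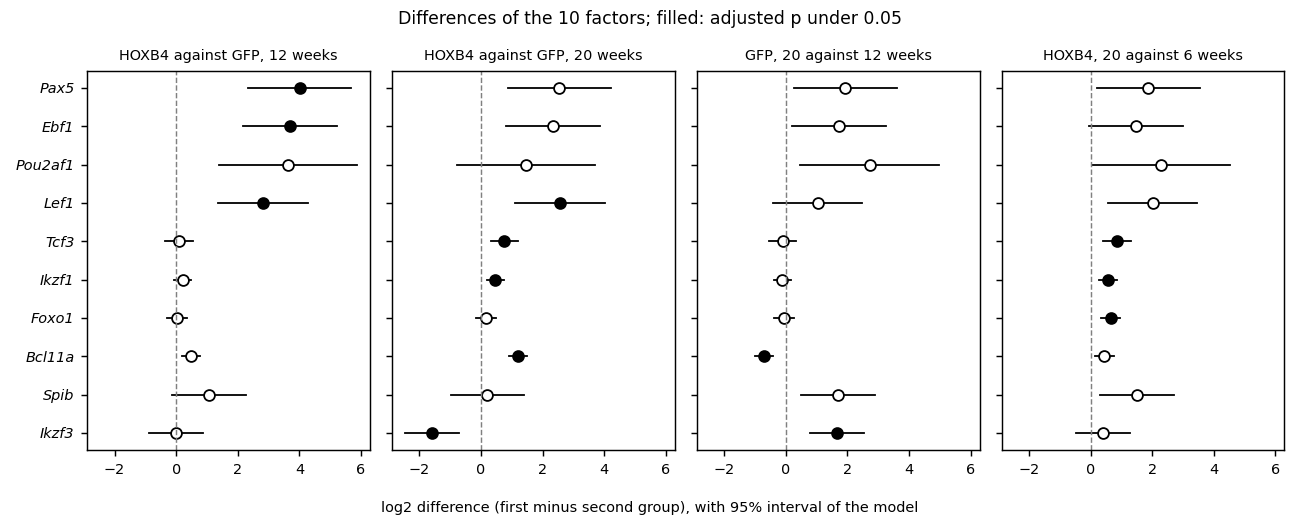
Log2 difference (horizontal axis) of each of the 10 factors (rows) in 4 comparisons (panels), with the 95% interval of the limma model; filled points passed an adjusted p under 0.05. Pax5, Ebf1, Pou2af1 and Lef1 lie between 2.82 and 4.01 for HOXB4 against GFP at 12 weeks, where Tcf3, Ikzf1, Foxo1 and Ikzf3 lie between 0.00 and 0.21; comparisons that share a group are not independent.

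Within GFP cells, Ikzf3 rose and Bcl11a fell from 12 to 20 weeks, in a comparison that shares the 20-week GFP arrays with the contrast of the vectors at 20 weeks. Ikzf3 went from 4.14, 4.12 and 3.86 to 5.80, 4.38 and 6.94, without overlap, by 1.67 ± 0.41 (limma adjusted p = 0.0468). Bcl11a fell by 0.70 ± 0.14 on the log2 scale (limma adjusted p = 0.0145), its 20-week arrays all lying below those of 12 weeks. No other probe set of either gene was called, with 0.28 for Ikzf3 (adjusted p = 0.605) and -0.53, -0.53 and -0.45 for Bcl11a (adjusted p = 0.115, 0.414 and 0.365). The other 8 were not called, with over all genes 1.23% called higher and 1.14% lower. Both calls depended on single arrays, since 1 or none of the 10 factors passed in each of the 6 fits without 1 GFP array, and with the mean of the probe sets none passed. With the replicate number as a block Bcl11a alone passed.

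The GFP arrays at 20 weeks differed among themselves in the same order for several factors. Replicate 3 was highest and replicate 2 lowest for Pax5, Ebf1, Pou2af1, Lef1, Spib and Ikzf3. The range was 6.16 to 8.57 for Pax5 and 6.57 to 9.27 for Pou2af1. Bcl11a and Foxo1 had this order too, over narrower ranges (8.60 to 9.20 and 6.25 to 6.73). Replicate 3 was also highest for Tcf3 and Ikzf1, where replicate 1 was lowest. All 3 arrays lay above every 12-week GFP array for 5 of the 10 factors, Pax5, Ebf1, Pou2af1, Spib and Ikzf3, and below for 1, Bcl11a, against 8.04% and 14.1% of all genes. None of Pax5 (1.93 ± 0.79; limma adjusted p = 0.288), Ebf1 (1.72; adjusted p = 0.302), Pou2af1 (2.72; adjusted p = 0.252) and Spib (1.70; adjusted p = 0.156) was called.

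Several single genes of more mature cells varied over these arrays, although few genes of the mature B cell, plasma cell and erythroid lists were called. From 12 to 20 weeks in GFP cells 1 of 8 mature B cell, 0 of 6 plasma cell and 1 of 6 erythroid markers were called higher. At an unadjusted limma p under 0.05, in either direction, these counts were 2 of 8, 5 of 6 and 5 of 6. The B-cell surface gene Ms4a1 (CD20) had signals of 5.17, 4.01 and 6.05 on replicates 1 to 3 of GFP at 20 weeks and 3.62 to 4.04 on the GFP arrays at 12 weeks. The immunoglobulin joining chain gene Jchain had 10.77, 9.19 and 11.34 at 20 weeks and 8.73, 7.62 and 8.08 at 12 weeks. Neither was called (Ms4a1 1.21, limma adjusted p = 0.0893; Jchain 2.29, adjusted p = 0.219). The mean log2 signal of 6 erythroid markers was 7.46, 6.41 and 7.78 at 20 weeks. For each of these replicate 2 was lowest and replicate 3 highest, as for the 6 factors named above and for Bcl11a and Foxo1. This order was not particular to genes of mature cells. Flt3 had it (7.63, 7.40 and 9.08), as did the mean levels of the T cell (5.25, 4.64 and 5.28), NK cell, plasmacytoid dendritic cell and LSK markers. For the last 2 of these lists replicates 1 and 2 were nearly alike. The mean levels of the neutrophil and monocyte markers did not have it. The low-affinity IgE receptor gene Fcer2a (CD23) did not have this order, with 5.46, 5.83 and 5.77, against 3.87 to 4.32 at 12 weeks. Over the 8 matched mature B cell markers the mean level of the GFP arrays ran from 6.84 to 7.89 after 20 weeks and from 6.78 to 7.09 after 12 weeks, and 1 of the 8, Fcer2a, was called higher (1.60; limma adjusted p = 0.000231). The 9 neutrophil markers had mean levels of 9.18 to 9.27 on the 20-week GFP arrays, 6.37 to 7.11 on the 12-week GFP arrays and 6.26 to 7.49 on the 20-week HOXB4 arrays, and for 10 monocyte markers these ranges were 7.47 to 7.76, 6.48 to 6.66 and 5.78 to 6.11. The mean level of 6 LSK markers was 6.99 to 7.21 on the 20-week GFP arrays, below the 7.83 to 7.97 of the 12-week GFP arrays and the 7.29 to 8.18 of the 20-week HOXB4 arrays. From 12 to 20 weeks in GFP cells 6 of 9 neutrophil and 6 of 10 monocyte markers were called higher, and 2 of 6 LSK markers, Cd34 and Procr, lower. Their part in the differences of the B-lineage factors was not tested.

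Over time in HOXB4 cells, Foxo1, Ikzf1 and Tcf3 were higher at 20 than at 6 weeks. Foxo1, which controls Il7r and Rag gene expression, had signals of 5.88, 6.16 and 5.69 at 6 weeks, 6.56, 6.44 and 6.48 at 12 weeks and 6.70, 6.58 and 6.44 at 20 weeks. All later HOXB4 arrays were above the 6-week arrays, by 0.66 ± 0.15 at 20 weeks (limma adjusted p = 0.0225) and by 0.58 ± 0.15 at 12 weeks (adjusted p = 0.0617). Ikzf1 was higher at 20 than at 6 weeks by 0.57 ± 0.13 (limma adjusted p = 0.0262) and Tcf3 by 0.85 ± 0.21 (adjusted p = 0.0329). The other probe sets gave 0.36 for Ikzf1 (adjusted p = 0.0758) and 0.89 and 0.67 for Tcf3 (adjusted p = 0.00842 and 0.0273). These 3 of 10 compare with 3.3% of all genes called higher. Without replicate 1 of the 6-week group Foxo1 alone was called, and without its replicate 3 Ikzf1 alone, while the count was 4 without its replicate 2, 0 without replicate 1 of HOXB4 at 20 weeks and 0 in a fit of only these groups. Replicate 1 at 6 weeks is the array that stood apart in the Gapdh control.

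Pax5, Ebf1, Pou2af1 and Lef1 split the 6-week HOXB4 group. Pax5 had signals of 8.78 and 9.81 on replicates 1 and 2 and 5.75 on replicate 3. Pou2af1 had 8.69, 9.17 and 3.71, the lowest Pou2af1 signal of the 15 arrays. Ebf1 had 7.72, 8.19 and 5.08 and Lef1 5.83, 7.32 and 3.77. Replicates 1 and 2 thus carried signals close to the HOXB4 arrays at 12 weeks for Pax5, Ebf1 and Pou2af1, and replicate 3 lay within or below the range of GFP at 12 weeks for Pax5, Pou2af1 and Lef1. Replicate 3 also had the lowest mean level of the 9 neutrophil markers, 4.94, against 7.15 and 6.98 on replicates 1 and 2. Its Ikzf1 and Bcl11a signals, 10.69 and 9.61, were close to those of the other 6-week arrays (10.32 and 10.38 for Ikzf1, 9.65 and 9.56 for Bcl11a).

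None of these 4 was called between any times in HOXB4 cells. Pax5 gave 1.87 ± 0.79 for 20 against 6 weeks (limma adjusted p = 0.192) and 1.41 ± 0.79 for 12 against 6 weeks (adjusted p = 0.399). Without replicate 2 of the 6-week group Pax5 (2.72; adjusted p = 0.0471) and Lef1 (2.85; adjusted p = 0.0151) passed for 20 against 6 weeks. Between 12 and 20 weeks none of the 10 factors was called (limma; 1 of 10 at an unadjusted p under 0.05; 0.252% of all genes called), and between 6 and 12 weeks none was either (3 of 10 at an unadjusted p under 0.05; 1.57% of all genes called). Bcl11a was at 10.02 ± 0.18 and 10.06 ± 0.05 (SD, n = 3) at 12 and 20 weeks, with a 95% interval of the change from -0.26 to 0.33.

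The order of the group means differed between the factors. For Pax5, Ebf1, Pou2af1 and Lef1, HOXB4 at 20 weeks was highest, HOXB4 at 12 weeks next and GFP at 12 weeks lowest, with GFP at 20 and HOXB4 at 6 weeks between. For Pax5 these means were 9.99, 9.53, 8.12 (HOXB4 at 6 weeks), 7.45 (GFP at 20 weeks) and 5.52, and the arrays of neighbouring groups overlapped down to GFP at 20 weeks, which lay above GFP at 12 weeks without overlap. For the tested probe set of Bcl11a both later HOXB4 groups were on top, overlapping, HOXB4 at 6 and GFP at 12 weeks in the middle, overlapping, and GFP at 20 weeks at the bottom, without overlap. All 4 Bcl11a probe sets had their lowest mean in GFP at 20 weeks, but the place of HOXB4 at 6 weeks differed, its mean being the highest of all groups in 1 of them (9.16). For Spib and Ikzf3, GFP at 20 weeks was among the upper groups, with Spib at 7.14 ± 1.56 there and 7.35 ± 0.66 in HOXB4 cells at 20 weeks, and Ikzf3 at 5.71 ± 1.28 against 3.70 to 4.11 for the other group means.

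Likeness of pattern was measured as the root mean square difference between 2 genes over the 15 arrays, after centring each gene on its own mean. Genes were not scaled, so the measure reflects the size of the changes as well as their shape. A factor with a small range, such as Ikzf1 (0.90 over the arrays), lies far from Pax5 (5.47) whatever its shape. Ebf1 lay 0.37 log2 units from Pax5, Lef1 0.54 and Pou2af1 0.69, while the other 6 factors lay 1.38 or more from it. Outside the 10 factors, predicted genes (Gm) and numbered Rik clones were left out of the ranking. Of the remaining genes, those most like Pax5 were Vpreb1 (0.29), Rag1 (0.38), Vpreb2 (0.54), Cd79a (0.55) and Gfra2 (0.60). Those most like Ebf1 were Rag1 (0.39), Vpreb1 (0.44), Blnk (0.54), Vpreb2 (0.58) and Gfra2 (0.60). Vpreb1 and Vpreb2 encode surrogate light chains, Rag1 the recombinase, Cd79a and Blnk signalling parts of the B-cell receptor, and Gfra2 a coreceptor for GDNF-family ligands. All of these values come from the same arrays and describe them without a test.

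The genes that Ebf1 and Pax5 are known to activate were taken from a list, of which 14 were matched to a tested probe set. At 12 weeks 9 of the 14 were called higher in HOXB4 cells and 5 not called, with a median of 2.19 against -0.02 over all genes. The signal of Vpreb1 was 7.64, 7.77 and 7.75 on the GFP arrays and 11.64, 11.27 and 11.51 on the HOXB4 arrays at 12 weeks, and that of Rag1 4.97, 5.29 and 4.77 against 9.08, 8.46 and 8.98. Neither gene overlapped between the groups, and the differences were 3.75 ± 0.79 for Vpreb1 (limma adjusted p = 0.0183) and 3.83 ± 0.72 for Rag1 (adjusted p = 0.00983). The 5 not called were Cd22, Blk, Fcrla and Bank1, with differences from -0.02 to 0.56, and Rag2 with 1.77 (limma adjusted p = 0.0605). On replicate 3 of HOXB4 at 6 weeks Vpreb1 was at 7.40 and Rag1 at 5.60, against 11.08 and 11.71, and 8.62 and 9.17, on replicates 1 and 2.

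At 20 weeks 5 of the 14 were called higher, Cd72, Rag2, Vpreb3, Vpreb2 and Rag1, and 9 were not called, with a median of 1.67. Cd72, a coreceptor of B cells, differed by 2.28 ± 0.21 (limma adjusted p = 1.53e-05) and Rag2 by 2.46 ± 0.49 (adjusted p = 0.0055). Ighm, the mu heavy chain, separated from the rest. Its signal was 4.05, 4.67 and 4.44 in GFP cells at 12 weeks and 8.86, 7.70 and 9.30 in GFP cells at 20 weeks, a rise of 4.23 ± 0.39 (limma adjusted p = 5.2e-05). In HOXB4 cells Ighm had 5.45, 5.46 and 5.11 at 6 weeks, 7.47, 7.27 and 8.71 at 12 weeks and 8.49, 8.01 and 7.76 at 20 weeks. It was therefore low on all 3 arrays at 6 weeks, also on the 2 whose Pax5 and Ebf1 signals were high. It was higher at 12 than at 6 weeks by 2.47 ± 0.39 (limma adjusted p = 0.0122), the 1 gene of the 14 called in that comparison.

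**Figure D4:**
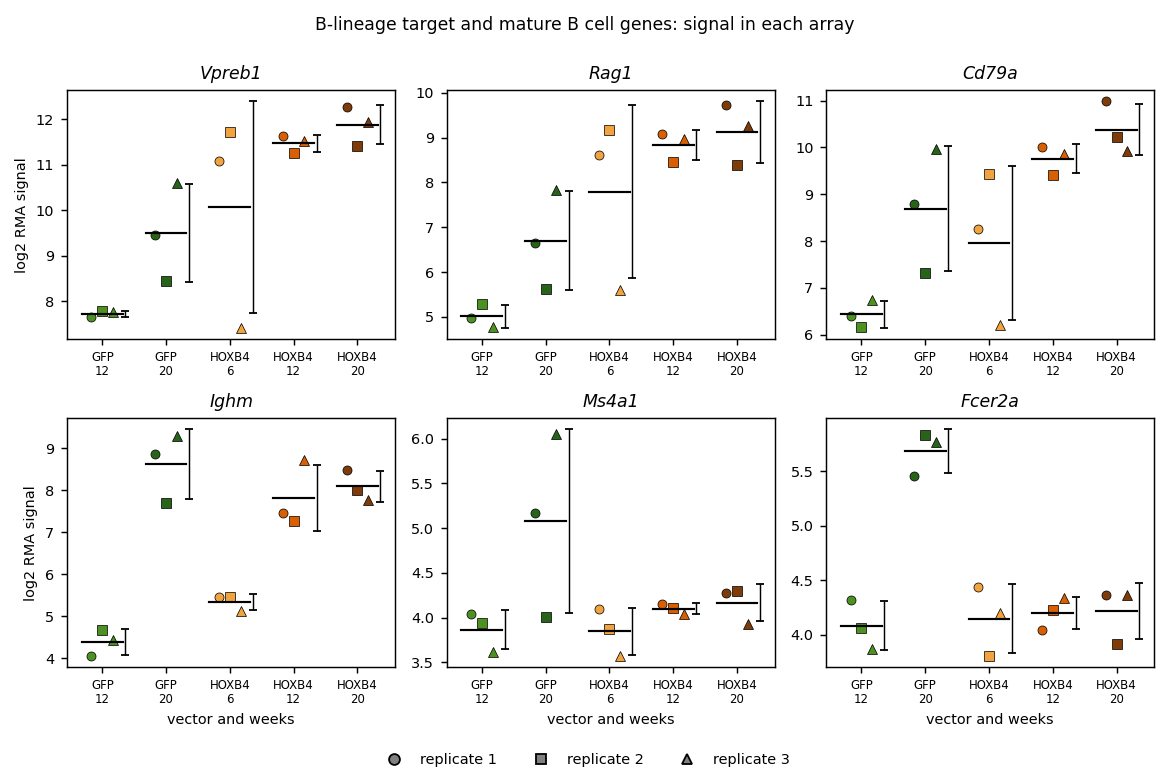
Log2 RMA signal of Vpreb1, Rag1, Cd79a, Ighm, Ms4a1 and Fcer2a (1 panel a gene, each with its own vertical range) on each of 15 arrays by vector and weeks; points are arrays, horizontal bars group means and vertical bars SD (n = 3). Vpreb1 and Rag1 repeat the pattern of Pax5 including the low replicate 3 of HOXB4 at 6 weeks. Cd79a shares that low array, but at 20 weeks its GFP arrays (7.31 to 9.98) overlap its HOXB4 arrays (9.92 to 10.98). Ighm is low on all 3 arrays at 6 weeks (5.11 to 5.46), and Fcer2a is raised on the GFP arrays at 20 weeks (5.46 to 5.83).

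The Id genes, whose products restrain E proteins such as that of Tcf3, did not move as 1 group. Id3 in HOXB4 cells exceeded its level in GFP cells at 12 weeks by 1.27 ± 0.32 (limma adjusted p = 0.0408) and at 20 weeks by 1.24 ± 0.32 (adjusted p = 0.0257), with signals of 5.70, 5.48 and 5.46 in GFP and 6.90, 6.42 and 7.13 in HOXB4 cells at 12 weeks. Id1 rose in GFP cells from 12 to 20 weeks by 0.79 ± 0.17 (limma adjusted p = 0.0229) and was the lower in HOXB4 cells then (-0.92 ± 0.17; adjusted p = 0.00306). Id2 and Id4 were not called in either contrast of the vectors.

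Of 18 listed paralogs of the factors 15 were matched, and none was called between the vectors at 12 weeks (limma; 2 of 15 at an unadjusted p under 0.05). At 20 weeks 3 were called higher in HOXB4 cells. Tcf7l2, a relative of Lef1, differed by 1.91 ± 0.33 (limma adjusted p = 0.00184), Tcf4, an E protein like that of Tcf3, by 0.996 ± 0.23 (adjusted p = 0.0139), and Foxo3 by 0.65 ± 0.11 (adjusted p = 0.00136). Ebf2, Ebf3 and Ebf4, the relatives of Ebf1, differed by 0.03, -0.08 and 0.15 at 20 weeks and by -0.05, 0.06 and 0.17 at 12 weeks, against 3.70 for Ebf1 at 12 weeks.

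Of 20 other regulators listed for the B lineage 19 were matched. At 12 weeks 1 was called higher in HOXB4 cells, Ets1 (2.07 ± 0.32; limma adjusted p = 0.00407), and 3 lower, Gfi1 (-1.20), Irf8 (-0.99) and Pou2f2 (-0.92), the last encoding the octamer-binding protein Oct2 that Pou2af1 assists. At 20 weeks Ets1 (1.13), Mef2c (0.79) and Runx1 (0.58) were called higher and Irf8 (-1.70 ± 0.25; limma adjusted p = 0.000622), Gfi1 (-1.62) and Spi1 (-1.19) lower. Ets1 had signals of 5.98, 6.03 and 6.36 in GFP cells and 8.52, 7.86 and 8.21 in HOXB4 cells at 12 weeks. Spi1, Irf8 and Gfi1 also act in myeloid progenitors. In HOXB4 cells the monocyte markers given above were at lower levels than in GFP cells at both times, and the neutrophil markers at higher levels at 12 weeks and lower levels at 20 weeks. Their part was not tested.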

How the data were processed

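Expression was measured on 15 arrays. The values are the authors' deposited log2 signals of 45141 probe sets, computed, per the submitters' processing notes, by RMA with Partek 6.5, from 20 ng of total RNA per sample per the labels' protocols. Filters and further scaling are not given in the sources used here. RMA's quantile normalisation gives all arrays a similar distribution (array medians 5.247 to 5.397), so values are relative within an array. The number of arrays limits the precision. The titles' 20 weeks were used, whereas the series text names 24.

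Of the probe sets, the platform annotation gave 28898 a single gene symbol and 551 several (left unnamed), and did not list 15692. Symbols of 28689 were updated by gene identifier against GRCm38.p6. Each of 17097 genes was tested by its brightest probe set, judged by the mean of all 15 arrays.

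A mean per group was fitted over all arrays with limma 3.58.1 in R 4.3.3 (lmFit, eBayes; 10 residual and 4.55 prior degrees of freedom), two-sided, in 7 comparisons. An exact permutation test of 3 arrays against 3 cannot go below p = 0.1, so the calls rest on the model. Data were simulated for HOXB4 against GFP at 12 weeks over 17097 genes. In them 86% of 100 genes changed by 1 log2 unit and 98% of 100 changed by 2 were recovered. The simulation gave each gene the same normal spread in all groups and changed genes picked at random. Factors such as Pou2af1 had unequal spread, with an SD of 3.02 in HOXB4 cells at 6 weeks and 0.32 at 12 weeks. The simulated shares do not give the recovery for such factors. Alternatives were median centring, further quantile normalization, removal of the dimmest 1 in 3 genes, other uses of probe sets, array weights, a trended robust moderation, only the groups compared, a replicate block and leaving out each replicate. Fits without the 6-week group or its replicate 3 were chosen after seeing the data. Same-numbered replicates of different groups deviated with correlations from -0.17 to 0.12 and were not taken as pairs.

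The members and the gene lists were chosen with earlier results of these data known. Named are the 10 members, up to 4 called genes of a list with the smallest p, the Id genes, paralogs and LSK markers, and the 5 genes nearest to Pax5 and to Ebf1; Ms4a1, Jchain, Cd22, Blk, Fcrla and Bank1 were named after their values were seen, as were Vpreb1, Rag1, Cd72 and Rag2 where not among those.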

Additional observations from a re-analysis of the deposited data

Results flagged for a closer look

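The HOXB4 effect at 20 weeks differed from that at 12 weeks by the limma test for Ighm (-3.96 ± 0.55; adjusted p = 0.00254), for Fcer2a (-1.59 ± 0.25; adjusted p = 0.00933) and for Foxo3 (0.85 ± 0.15; adjusted p = 0.0208). In each case the GFP groups differed between both times: Ighm and Fcer2a rose by 4.23 and 1.60 and Foxo3 fell by 0.62 in GFP cells, while the HOXB4 values at both times were 7.81 and 8.09 for Ighm, 4.203 and 4.217 for Fcer2a and 10.15 and 10.38 for Foxo3. For Runx1 every GFP array was lower at 20 weeks (8.94 to 9.16) than at 12 weeks (9.37 to 9.45) and every HOXB4 array higher (9.46 to 9.73 against 9.33 to 9.36), with a difference between the effects of 0.65 ± 0.14 that did not pass (limma adjusted p = 0.0632).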

How the results depend on the processing

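The values of the 10 factors kept their direction under the alternatives: of 1203 values recomputed, none that had passed in either fit changed sign, and 20 that passed in neither did. The calls were less firm, with 142 of 213 called values still called. For HOXB4 against GFP at 12 weeks, the count of called factors was 3, with 6 when only the groups compared were fitted, 5 with array weights, and 0 to 4 when 1 replicate was left out. At 20 weeks it was 5, with 2 for only the groups compared, 3 with arrays centred on their median, 3 with the mean of the probe sets, and 1 to 7 leaving out 1 replicate. For GFP at 20 against 12 weeks it was 2, with 6 under array weights, 0 with the mean of the probe sets, 1 each with all probe sets, with the dimmest genes removed (which removes Ikzf3) and with an intensity trend and robust moderation, and 0 to 3 leaving out 1 replicate. For HOXB4 at 20 against 6 weeks it was 3, with 0 for only the groups compared, 1 with array weights, and 0 to 4 leaving out 1 replicate. The difference between the effects had 0 calls, with 1 under array weights and 0 to 1 leaving out 1 replicate, and HOXB4 at 12 against 6 weeks had 0, with 1 when arrays were centred on their median and 0 to 1 leaving out 1 replicate. With the replicate number as a block, which does not pair these samples, the count for GFP at 20 against 12 weeks was 1, and Tcf3 was no longer called at 20 weeks (adjusted p = 0.0508) or for 20 against 6 weeks (adjusted p = 0.0509). Apart from changes that follow from fewer samples or genes, the cause was not tested. Lef1 was called in 1 of 7 fits that left out 1 replicate at 12 weeks, Pax5 and Ebf1 in 5 of 7 each.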

Other observations

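Of 7 matched plasmacytoid dendritic cell markers, 2 were called higher in HOXB4 than in GFP cells after 20 weeks, Cox6a2 (1.49 ± 0.39; limma adjusted p = 0.0282) and Tcf4 (0.996 ± 0.23), and 5 were not called, with a median of 0.29. Siglech, Bst2 and Runx2 were not analysed here. Jchain, a gene of antibody-secreting cells, was higher in HOXB4 cells at 20 than at 6 weeks by 3.54 ± 0.84 (limma adjusted p = 0.0293), with signals of 7.66, 6.75 and 3.52 at 6 weeks and 9.68, 10.23 and 8.62 at 20 weeks. Of the 6 LSK markers, 2 were called lower in HOXB4 than in GFP cells after 12 weeks and 2 higher after 20 weeks. HOXB4 cells had less Cd34 signal at 12 weeks (-0.75 ± 0.13; limma adjusted p = 0.00731), and less Kit (-0.63 ± 0.13; adjusted p = 0.014), and at 20 weeks more Slamf1 (1.80 ± 0.50; adjusted p = 0.0377) and more Flt3, a receptor of lymphoid-primed progenitors (1.41 ± 0.33; adjusted p = 0.0128), with 7.63, 7.40 and 9.08 on the GFP and 9.44, 9.41 and 9.49 on the HOXB4 arrays.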
